A study of Mus musculus with 68 samples.

Results

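The transcripts of 9 genes were followed in dopamine neurons of the ventral tegmental area, cell by cell. App encodes the amyloid precursor protein, Adam10, Bace1, Psen2, Ncstn, Aph1a and Psenen encode enzymes or enzyme subunits that cut it, Mapt encodes tau, and Apoe encodes apolipoprotein E. The genes were taken by symbol, as 9 of the 36172 genes of the deposited table, with earlier results of these data known. RNA was drawn into the recording pipette after patch-clamp recording (Patch-seq), so that each library came from 1 neuron. The table holds 68 neurons from 12-month-old male and female mice, 33 from 3xTg and 35 from WT. 3xTg mice are homozygous for 3 humanized transgenes, among them APP Swe and tau P301L, and the human APP and tau coding sequences of this strain are driven by a Thy1 cassette, which is active mainly in neurons. WT mice came from a separate line of the same hybrid background without the transgenes. The labels name no mouse for any cell, so each genotype was taken as 1 sample. No test between genotypes was made, intervals cover counting error only (those of shares treat cells as independent draws and do not compare genotypes), and the spread among cells is not a spread among mice.

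The amyloid precursor protein is a membrane protein of neurons and many other cells. Cut by α-secretase, of which ADAM10 is the main neuronal enzyme, it yields no amyloid beta, since this cut falls inside the amyloid beta stretch. Cut first by β-secretase (BACE1) and then within the membrane by γ-secretase, it releases amyloid beta. γ-Secretase is a complex of a presenilin, which holds the active site, with nicastrin (Ncstn), an APH-1 protein (Aph1a, Aph1b or Aph1c in the mouse) and the presenilin enhancer protein (Psenen). Tau binds and stabilises microtubules of axons. Apolipoprotein E carries lipids between brain cells and is made mainly by astrocytes and by activated microglia.

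The stretch of mouse App that encodes amyloid beta is shown because the enzymes of the other members cut the protein within it or at its ends. It was read from the GENCODE mouse transcripts and lies on the minus strand of mm10 in 2 coding exons, at chr16:84965670-84965723 and chr16:84962791-84962868. The capitals mark, in order, the codons on either side of the β-secretase cut (Bace1), the codons on either side of the α-secretase cut after residue 16 of amyloid beta (Adam10), and, before the final codon, those at which the cuts of γ-secretase (Psen2, Ncstn, Aph1a and Psenen) end the peptide.
Mouse App, amyloid beta: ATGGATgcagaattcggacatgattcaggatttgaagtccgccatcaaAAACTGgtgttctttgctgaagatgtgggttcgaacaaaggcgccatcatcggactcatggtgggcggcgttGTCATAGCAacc
This 132-base stretch begins 1 codon before residue 672 of the 770 residues of the longest mouse protein. Reads were aligned by the authors to mouse transcripts alone, with at least 90% identity, and whether reads of the human APP and tau transgenes entered the counts of App and Mapt was not tested.

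Cells had totals of 492505 to 1678624 counts. A median of 8629 genes had a count in 3xTg cells and 7603 in WT cells. The label numbers of the cells lie in runs of 1 genotype, and what the numbers mark is not stated. WT 1 to 22 (17 cells) and 3xTg 24 to 55 (21 cells) are called the first runs here, and WT 57 to 74 (15 cells) and 3xTg 76 to 92 (12 cells) the second runs. WT 94 to 96 (3 cells) lie in neither pair. All 8 dopamine neuron markers examined (Th, Slc6a3, Slc18a2, Ddc, Pitx3, En1, Foxa2 and Nr4a2) had counts in both genotypes. Their summed level was 6894 to 34222 CPM (counts per 1000000 counts) in 3xTg cells and 4677 to 26061 CPM in WT cells. No 2 cells had identical counts. The deposited counts are estimates, and 55.3% of those above 0 had a fraction of over 0.001.

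Of the 9 members, 8 had counts and also had a mean of at least 1 count per cell over all 68 cells, as had 13604 genes of the table, and each of the 8 passed this minimum in either genotype alone. Aph1a was listed at 0 in every cell. By counts summed over the cells of a genotype and scaled to its total, 1 member, Ncstn, was at least 1.5-fold higher in 3xTg, where 21.5% of all genes with a mean of at least 1 count were. A single member, Apoe, was at least 1.5-fold lower, where 25.5% of those genes were. Neither share is above its background. The median log2 ratio, 3xTg over WT, was 0.13 for the 8 members and −0.05 for all such genes.

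App was counted in every neuron. Its size-factor normalized count in 3xTg cells was 132 in the lowest, 502 in the median and 1991 in the highest cell. In WT cells it was 1.82 in the lowest, 368 in the median and 3631 in the highest cell. The 3xTg range lay inside the WT range, and both the lowest and the highest cell were WT. The sums were 22617 counts for 3xTg (95% bounds 22323 to 22914) against 18905 for WT (18637 to 19176), or 616 and 556 CPM, a log2 ratio of 0.15 (interval 0.12 to 0.18). One WT cell, WT 9, held 16.9% of the WT sum, and without it the log2 ratio was 0.37. On the scale of log2(normalized count + 1), the mean over cells was 8.95 ± 1.10 (SD of the cells) for 3xTg and 8.36 ± 1.73 for WT. This difference of 0.59 is smaller than either SD, and the median gene differed by 0.34 in the same direction.

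**Figure D1:**
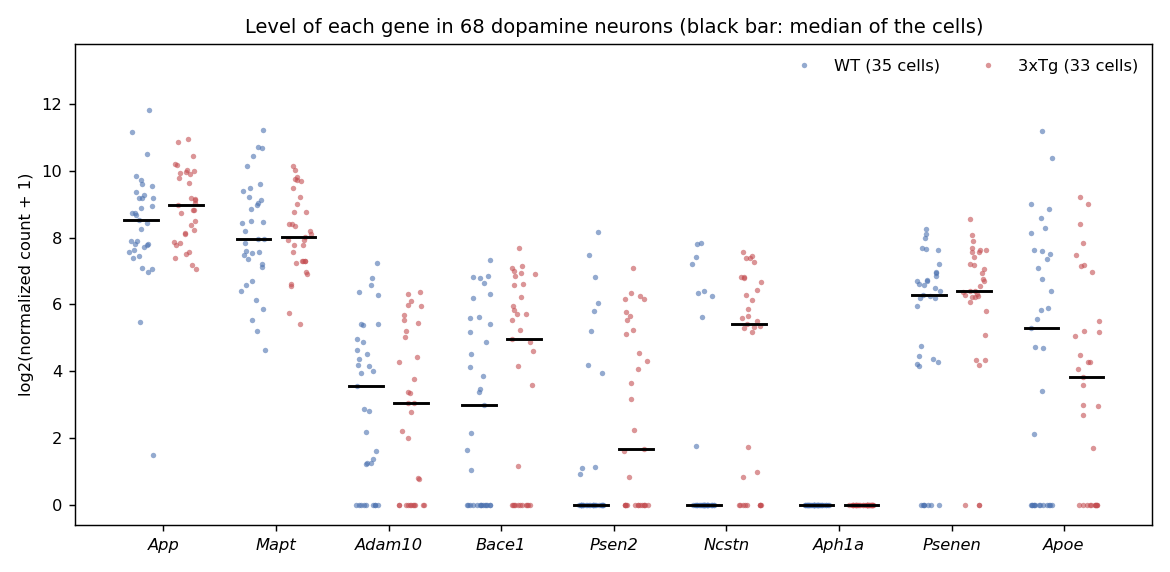
Level of each gene in each neuron as log2(normalized count + 1), with WT cells in blue, 3xTg cells in red and the median of the cells as a black bar. App and Mapt lie above 0 in all 68 cells, Ncstn and Psen2 have a WT median of 0, and Aph1a is at 0 throughout.

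Adam10, the α-secretase, was low and uneven in both genotypes. It was found in 66.7% of 3xTg neurons (22 of 33, 95% bounds 48.2% to 82.04%) and 74.3% of WT neurons (26 of 35, 95% bounds 56.7% to 87.5%). The median normalized count was 7.27 in 3xTg cells and 10.8 in WT cells, and the highest cells reached 82.3 and 149.9. The sums of 758 and 970 counts gave 20.6 and 28.5 CPM and a log2 ratio of −0.47 (interval −0.60 to −0.33). The direction was not shared by the runs, with 0.57 in the first pair and −1.22 in the second. WT 74 alone held 22.3% of the WT sum, and without it the log2 ratio over all cells was −0.13.

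Bace1, the β-secretase, lay just inside the 1.5-fold limit. Its sums were 2012 counts for 3xTg (95% bounds 1925 to 2102) against 1250 for WT (1182 to 1321), or 54.8 and 36.7 CPM, a ratio of 1.49-fold and a log2 ratio of 0.58 (interval 0.47 to 0.68). In 3xTg cells the median normalized count was 30.3 and the highest 206, and in WT cells 6.97 and 161. Both genotypes held cells at 0, 11 of 33 and 14 of 35, so that the cells overlapped. The share of cells with a count was 66.7% of 3xTg and 60% of WT neurons, which differ by 6.67 percentage points beside a median of 6.32 over all genes. In cells thinned to one depth of 700471 counts, these shares were 64.5% of 31 3xTg and 46.7% of 30 WT cells. The ratio pointed the same way in both pairs of runs, with 0.71 in the first and 0.49 in the second. The later run of each genotype was also the higher one, by 1.19 in WT and by 0.97 in 3xTg, which is more than the genotypes differed. All 12 cells of 3xTg 76 to 92 had a count of Bace1, against 10 of 21 cells of 3xTg 24 to 55. Bace1 shares 1086 exonic bases with genes on the opposite strand (Gm16536 and Gm49338), and whether the counting used strand is not stated.

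Ncstn, the nicastrin subunit that receives the substrate of γ-secretase, differed most in the share of neurons with a count. It was counted in 72.7% of 3xTg neurons (24 of 33, 95% bounds 54.5% to 86.7%) and 25.7% of WT neurons (9 of 35, 95% bounds 12.5% to 43.3%). This difference of 47.01 percentage points lay at percentile 99.9 of all genes with a mean of at least 1 count. Among those genes, 14.3% had a share at least 20 points higher in 3xTg and 0.426% a share at least 20 points lower, and of the 8 members Ncstn and Psen2 were at least 20 points higher and none was as much lower. The normalized count of Ncstn had a median of 42.1 and a highest value of 190.0 in 3xTg cells, and a median of 0 and a highest value of 229 in WT cells. The highest cell was therefore WT, and among cells with a count the WT median (83.8, 9 cells) was above that of 3xTg (63.4, 24 cells). The sums were 2365 counts for 3xTg (95% bounds 2271 to 2462) against 1167 for WT (1101 to 1236), or 64.4 and 34.3 CPM, a ratio of 1.88-fold and a log2 ratio of 0.91 (interval 0.81 to 1.01). At percentile 86.6 of all genes, the ratio of sums stood out less than the share of cells. Ncstn was counted in 14 of 21 and 10 of 12 cells of the 3xTg runs, and in 4 of 17 and 4 of 15 cells of the long WT runs. After every cell was thinned to 700471 counts, which left 31 3xTg and 30 WT cells, 70.97% of 3xTg and 26.7% of WT cells still had a count.

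The number of genes detected moved with the share of cells that held Ncstn, and its part in the difference between genotypes was not tested. In cells at or above the median of 8056.5 genes, Ncstn was counted in 17 of 19 3xTg and 5 of 15 WT cells. Below that median the numbers were 7 of 14 and 4 of 20. The share was thus higher in 3xTg in both groups, while the log2 ratio of the sums was 1.005 above and 0.39 below the median. Of the Ncstn exons, 149 bases overlap Copa on the opposite strand.

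Psen2, which encodes presenilin 2, a catalytic subunit, was also counted in more 3xTg neurons, but its sums were close. It was found in 57.6% of 3xTg neurons (19 of 33, 95% bounds 39.2% to 74.5%) and 31.4% of WT neurons (11 of 35, 95% bounds 16.9% to 49.3%). The share differed by 26.1 points, at percentile 93.7 of all genes. In 3xTg cells the median normalized count was 2.22 and the highest 135, and in WT cells 0 and 288. The sums were 877 and 754 counts, or 23.9 and 22.2 CPM, and the interval of the log2 ratio of 0.11 (interval −0.03 to 0.25) includes 0. WT 20 held 22.6% of the WT counts. Without WT 94 the log2 ratio was 0.43, and without 3xTg 49 it was −0.05. The first pair of runs gave −0.11 and the second 1.04. WT 20 held 43.9% of the counts of the first WT run, and WT 67 held 47.8% of those of the second.

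Psenen, which encodes the smallest γ-secretase subunit, was the most widely counted of the enzyme genes. It was found in 90.9% of 3xTg neurons (30 of 33, 95% bounds 75.7% to 98.1%) and 80% of WT neurons (28 of 35, 95% bounds 63.1% to 91.6%). The median normalized counts were 84.4 in 3xTg and 77.2 in WT and the highest were 379.8 and 307, so that the cells of the genotypes lay in one range. The sums of 3917 and 3216 counts gave 107 and 94.5 CPM and a log2 ratio of 0.17 (interval 0.11 to 0.24), with 0.60 in the first pair of runs and −0.11 in the second.

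Aph1a, 1 of the APH-1 subunit genes, was listed at 0 in all 33 3xTg and all 35 WT cells. In the table, 5759 of 22013 protein-coding genes (26.2%) are listed at 0 in every cell. They include Map1a, Map1b, Map2, Map4 and Map6, the first 3 of which encode abundant neuronal proteins, so that a 0 in this table was not read as absence. These 5 genes stand in the table under older symbols, and 49.01% of 2277 protein-coding genes with an older symbol are at 0, against 20.6% of 18975 genes with the current one. Aph1a stands under its current symbol, and its exons share 445 bases with Car14 on the opposite strand. No upper limit was therefore drawn for Aph1a. The other APH-1 genes had counts, with Aph1b in 10 3xTg and 7 WT cells and Aph1c in 26 and 28 cells.

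**Figure D2:**
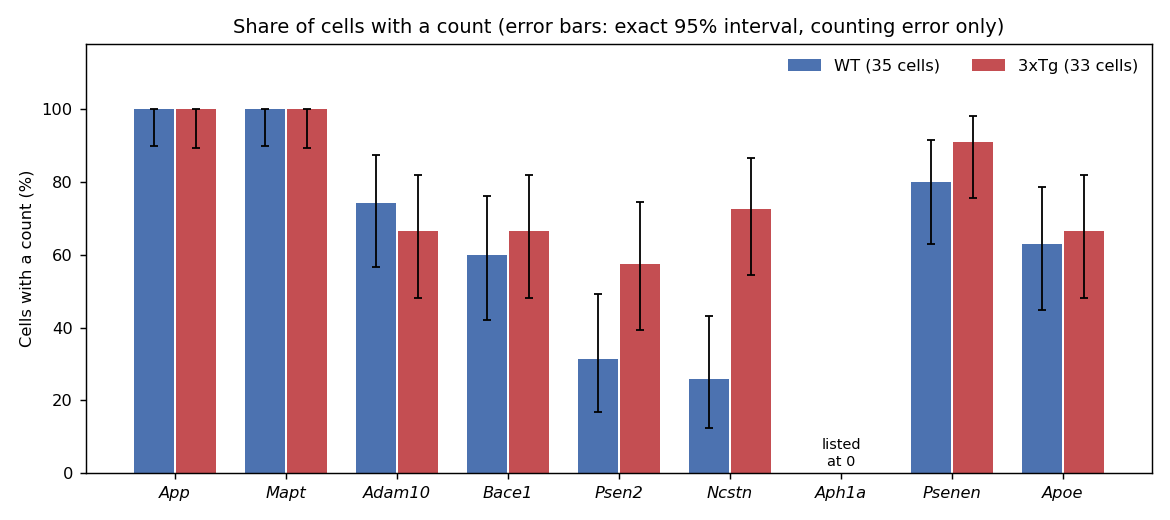
Percent of cells with a count of each gene, WT in blue (35 cells) and 3xTg in red (33 cells), with exact 95% intervals that cover counting error only. Ncstn has the widest gap between the genotypes (72.7% of 3xTg and 25.7% of WT cells), App and Mapt are at 100% in both, and Aph1a is listed at 0.

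Whether the enzyme genes were found in the same neurons was counted cell by cell. Psen2, Ncstn and Psenen, the 3 γ-secretase members with counts, were all present in 48.5% of 3xTg neurons (16 of 33, 95% bounds 30.8% to 66.5%) and 8.57% of WT neurons (3 of 35, 95% bounds 1.80% to 23.1%). With App and Bace1 added, 15 3xTg and 3 WT cells held all 5 transcripts. Bace1 and Ncstn were together in 19 3xTg and 8 WT cells. App and Adam10 were together in 22 3xTg and 26 WT cells, which are the cells with Adam10, since App was in every cell. A 3xTg cell held a median of 7 of the members (range 3 to 8) and a WT cell a median of 5 (range 2 to 8). None of Psen2, Ncstn and Bace1 was counted in 5 3xTg and 10 WT cells. These numbers combine the shares given above for each gene, and the part of the number of genes detected, which was higher in 3xTg, was not tested.

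Mapt, like App, was counted in all 68 neurons. Its normalized count in 3xTg cells ranged from 41.5 to 1136 with a median of 259.7, and in WT cells from 23.7 to 2378 with a median of 250.3. The medians are nearly equal, and the 3xTg range lay inside the WT range. The sums were 13335 counts for 3xTg (95% bounds 13110 to 13563) against 15964 for WT (15717 to 16214), or 363 and 469 CPM, a log2 ratio of −0.37 (interval −0.40 to −0.34). By the mean of log2(normalized count + 1), the genotypes had 8.11 ± 1.22 and 8.09 ± 1.63 (SD of the cells). The runs of WT differed more than the genotypes, and those of 3xTg less. WT 1 to 22 had 610.4 CPM, while WT 57 to 74 had 349.8 CPM, 3xTg 24 to 55 had 359.8 CPM and 3xTg 76 to 92 had 368 CPM. The first pair of runs therefore gave a log2 ratio of −0.76 and the second 0.07. Within the first WT run, WT 17 held 18.1% of the counts.

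**Figure D3:**
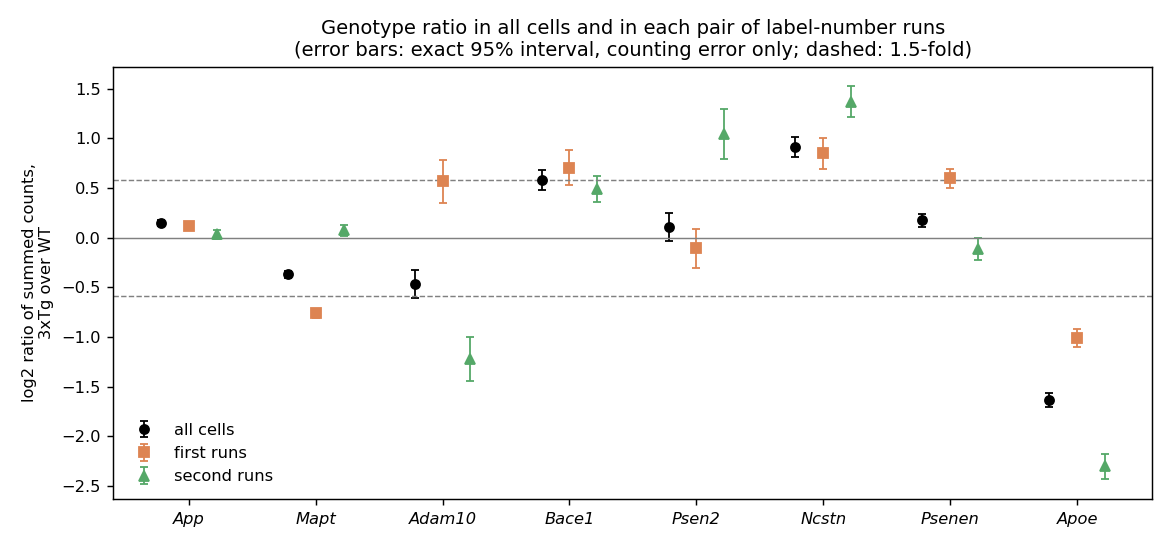
Log2 ratio of summed counts, 3xTg over WT, for the 8 members with counts, over all cells (black), between the first runs (orange) and between the second runs (green) of label numbers, with exact 95% intervals that cover counting error only. Ncstn lies above the upper dashed line (1.5-fold) and Apoe below the lower one in all 3 comparisons, while Mapt, Adam10, Psen2 and Psenen have points on both sides of 0. A single cell, WT 6, held 68.9% of the WT counts behind the Apoe point of the first runs.

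The members were also counted against the background of each pair of runs. Between the first runs, Bace1, Ncstn and Psenen (3 of 8) were at least 1.5-fold higher in 3xTg, where 35.5% of genes were, and Mapt and Apoe (2 of 8) at least 1.5-fold lower, where 23.7% were. Between the second runs, Psen2 and Ncstn (2 of 8) were at least 1.5-fold higher, where 23.1% were, and Adam10 and Apoe (2 of 8) lower, where 35.7% were. Ncstn was higher and Apoe lower in both pairs of runs, as were 9.48% and 9.64% of genes. For Apoe, WT 6 alone held 68.9% of the counts of the first WT run. The mean of log2(normalized count + 1) of Apoe in the first runs was 3.53 in 3xTg and 3.12 in WT, the other direction.

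Apoe was present in the same number of neurons of each genotype, but its summed counts were higher in WT. It was found in 66.7% of 3xTg neurons (22 of 33, 95% bounds 48.2% to 82.04%) and 62.9% of WT neurons (22 of 35, 95% bounds 44.9% to 78.5%). The normalized count had a median of 13.2 and a highest value of 597 in 3xTg cells, and a median of 38.7 and a highest value of 2345 in WT cells. The sums were 2247 counts for 3xTg (95% bounds 2155 to 2342) against 6448 for WT (6292 to 6607), or 61.2 and 189.5 CPM, which is 3.10-fold higher in WT, a log2 ratio of −1.63 (interval −1.70 to −1.56). The first pair of runs gave −1.01 and the second −2.30. A few cells carried the WT sum. WT 6 held 1773 counts (27.5% of the WT sum) and WT 73 held 1300.1. Without both of them WT was 1.72-fold higher, a log2 ratio of −0.79. In 3xTg, 3xTg 50 had the most, with 565 counts (25.1% of the sum).

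Transcripts of glial cells were counted in many of the neurons, and their summed level, like that of Apoe, was higher in WT. Of 8 astrocyte markers (Aldh1l1, Gfap, Aqp4, Slc1a3, Slc1a2, Gja1, S100b and Sox9) 7 had counts in each genotype, and Aldh1l1 was at 0 in every cell. Their summed level ran from 20.3 to 924 CPM in 3xTg cells (median 227) and from 6.13 to 2679 CPM in WT cells (median 255). Of 9 microglia markers (P2ry12, Tmem119, C1qa, C1qb, C1qc, Cx3cr1, Csf1r, Tyrobp and Trem2) 8 had counts in 3xTg and 9 in WT, with a summed level of 0 to 7558 CPM in 3xTg cells (median 45.3) and 0 to 3927 CPM in WT cells (median 41.6). The medians were close, but the levels of the summed counts were 267 CPM in 3xTg and 424 CPM in WT for the astrocyte markers, 216 and 575 CPM for the microglia markers, and 115 and 317 CPM for 8 oligodendrocyte markers. WT 6 also held 1049.6 counts of Slc1a3, a glutamate transporter of astrocytes, and 1326 of C1qb, a complement gene of microglia, the only 2 of 13 astrocyte and microglia markers with a count there. WT 73, with counts of 6 of the 13, held 1047 counts of Gja1, a gap junction gene of astrocytes, and 1273 of C1qb. Other cells went the other way. 3xTg 50, the cell with the most Apoe after these, had a single count of the 13 markers, while 3xTg 43 (5219 counts of them) and WT 7 (4490 counts) had no Apoe. Summed over the cells of a genotype, the 13 markers reached 216 CPM (3xTg) and 727 CPM (WT). At least 10 counts (to within 0.001) of 1 of these 13 glial markers were present in 22 3xTg and 21 WT cells. These cells held 60.3% of the Apoe counts of 3xTg and 86.7% of those of WT. Apoe was not confined to them, since 6 of the 11 other 3xTg cells and 8 of the 14 other WT cells had a count.

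The genotype ratio of Apoe was also taken in each part of the cells split by these markers. In cells with glial transcripts the Apoe sums were 1354 counts in 3xTg and 5591 in WT, or 56.7 and 292 CPM, which is 5.15-fold higher in WT. In the other cells they were 893 and 857 counts, or 69.6 and 57.6 CPM, a log2 ratio of 0.27 (interval 0.14 to 0.41). This change of sign rested on 3xTg 50, without which the other cells had 328 and 857 counts, or 27.5 and 57.6 CPM, a log2 ratio of −1.07 (interval −1.25 to −0.88). Over all 68 cells, Spearman's rho between the Apoe count and the summed count of the 13 glial markers was 0.221, with 0.187 within 3xTg and 0.215 within WT. Each point is 1 library, so that both measures share its depth. The part of glial RNA in the ratio of Apoe was not tested beyond this split.

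**Figure D4:**
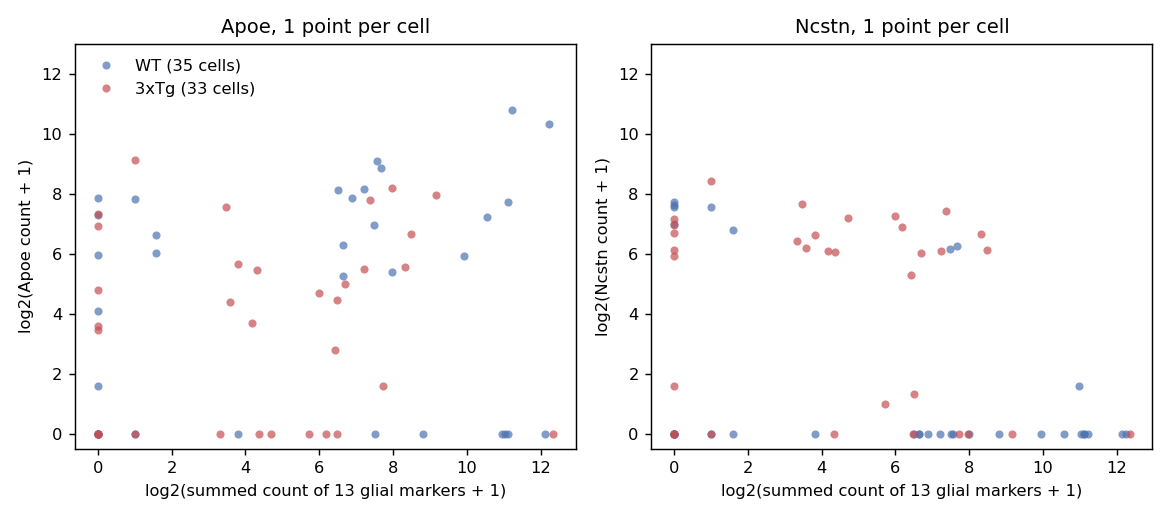
Count of Apoe (left) and Ncstn (right) in each neuron against the summed count of 13 astrocyte and microglia markers in the same neuron, all as log2(count + 1), WT in blue (35 cells) and 3xTg in red (33 cells). The highest points of Apoe are WT 6 (1773 counts) and WT 73 (1300.1 counts), both with many glial counts, 3xTg 50 (565 counts) comes next with 1 glial count, and 3xTg 43 and WT 7 lie far to the right at 0 for Apoe. Most WT cells with glial counts lie at 0 for Ncstn.

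The same split bears on Ncstn. In the 43 cells with at least 10 counts of a glial marker, Ncstn was counted in 16 of 22 3xTg cells and 3 of 21 WT cells, with sums of 1437 and 148 counts, a log2 ratio of 2.96 (interval 2.72 to 3.22). Among the 25 others it was counted in 8 of 11 3xTg cells and 6 of 14 WT cells, with sums of 928 and 1019 counts, or 72.3 and 68.5 CPM. The log2 ratio there was 0.078 (interval −0.052 to 0.21), short of 1.5-fold. Without 3xTg 50 it was 0.19. With cells at exactly 10 counts placed among the others (14 of each genotype), it was 0.077, and without 3xTg 50 as well, 0.16. The paper states that the cells kept were negative for Pvalb, Tmem119, P2ry12 and Aldh1l1, without giving the level taken as negative. In the deposited counts 10 cells (5 of each genotype) had a count of Pvalb, Tmem119, P2ry12 or Aldh1l1. Without these 10 cells the log2 ratio of Ncstn was 0.77. Other members also moved with the split. Psen2 had a log2 ratio of 1.07 in the cells with glial transcripts and −1.07 in the others (−0.49 with cells at exactly 10 counts among them), and was counted in 16 of 22 3xTg and 7 of 21 WT cells with glial transcripts but in 3 of 11 and 4 of 14 of the others. Psenen had 0.38 and −0.14, and Mapt had −0.023 and −0.81. Adam10, with −0.16 and −1.45, App, with 0.11 and 0.073, and Bace1, with 0.57 and 0.43, each kept one direction.

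Levels of different genes were compared per kb of the exons that GENCODE places within each gene's span, as CPM of the summed counts per kb. App was highest in both genotypes, with 184 in 3xTg and 166 in WT, and Psenen came next, with 139.8 and 124. Below them, Mapt (57.3 and 74.03) was above Apoe (36.4) in 3xTg and below Apoe (113) in WT. Without WT 6 and WT 73 the WT order of these genes turned, with 71.3 for Mapt and 62.8 for Apoe. Ncstn had 22.6 and 12.01, Bace1 13.2 and 8.87, and Psen2 10.5 and 9.72. Adam10 was lowest of the counted members, with 4.499 and 6.21. Psen2 was below Bace1 in 3xTg and above it in WT. The steps from one to the next of Ncstn, Bace1 and Psen2, and in WT also Adam10, were smaller than the difference of Bace1 between the runs of 1 genotype (2.29-fold in WT and 1.96-fold in 3xTg). App and Psenen differed about as much as App did between those runs (1.29-fold and 1.36-fold). With 1 sample a genotype no finer order can be read.

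Across the 68 cells the members were only loosely related to each other. Spearman's rho of log2(normalized count + 1) was highest for Bace1 with Ncstn (0.474), Adam10 with Psenen (0.463), Bace1 with Psen2 (0.43) and App with Mapt (0.409). App and Mapt kept this within 3xTg (0.399) and within WT cells (0.455), while Bace1 with Psen2 had 0.607 within 3xTg and 0.172 within WT. Each point is 1 library, and the number of genes detected in it had a rho of 0.479 with Bace1, 0.449 with Psen2 and 0.379 with Ncstn, but −0.160 with App and −0.195 with Mapt. The total count of the library had a rho of 0.440 with App and 0.436 with Mapt, as large as that of App with Mapt.

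The genes most like App, Mapt and Psenen, the members counted in at least 80% of all cells, were sought among 3409 genes counted as widely, by Spearman's rho over the 68 cells. For App they were Calm3 (0.703), a calmodulin gene, Rps27a (0.669), which encodes ubiquitin fused to a ribosomal protein, and Atp6v0d1 (0.664), a subunit of the vesicular proton pump. For Mapt they were Foxp2 (0.683), a transcription factor, Pfn2 (0.662), a profilin that binds actin, and the ribosomal protein gene Rps21 (0.656). For Psenen they were Ndufc2 (0.686), a subunit of respiratory complex I, Rpl30 (0.651), a ribosomal protein gene, and Npc2 (0.610), a cholesterol carrier of the lysosome. The median rho of all 3409 genes was 0.071 with App, 0.096 with Mapt and 0.071 with Psenen. Within one genotype the values of these 9 genes lay between 0.423 (Npc2 with Psenen in WT) and 0.835 (Npc2 with Psenen in 3xTg).

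Among relatives of App, Aplp2 was at least 1.5-fold higher in 3xTg (1 of 3 genes of the APP family, where 21.5% of all genes were). Aplp1 and Aplp2 encode the amyloid precursor-like proteins, which are also cut by secretases but hold no amyloid beta. Aplp2 had sums of 46329 (3xTg) and 25565 counts (WT) and a log2 ratio of 0.75, with 0.74 and 0.57 in the pairs of runs, and Aplp1 had a log2 ratio of 0.34. Of 5 further secretase genes, 4 passed the minimum mean count, none was at least 1.5-fold higher and 2 of the 4 were at least 1.5-fold lower, where 25.5% of all genes were. Their median was −0.63, beside −0.05 for all genes. Aph1b had a log2 ratio of −3.30, but a single cell held 58.9% of its counts and the second runs gave 0.51. Adam9 had −0.77, with 1.51 and −2.95 in the runs, and Aph1c had −0.48. Adam17, the other well-known α-secretase, had 0.42 and was counted in 21 3xTg and 9 WT cells. It had 3.33 and 2.26 in the pairs of runs, and a single WT cell outside them, WT 96, held 30.7% of its counts.

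Of 12 adaptors and sorting proteins of the amyloid precursor protein, all passed the minimum, with 4 at least 1.5-fold higher (21.5% of all genes) and 2 at least 1.5-fold lower (25.5% of all genes). Their median was 0.35. Sorl1, a sorting receptor that keeps the precursor away from the secretases, was highest, with 2165 and 580 counts and a log2 ratio of 1.79, yet −0.24 between the second runs. Apbb2, an adaptor that binds the tail of the precursor, had 1.42, with 1.34 and 1.28 in the runs. Picalm, a clathrin assembly protein, was lowest with −0.74, and Gga3, which sorts BACE1 to lysosomes, had −0.70. Of 4 enzymes that degrade amyloid beta, none was at least 1.5-fold higher and 2 were at least 1.5-fold lower, beside the same 21.5% and 25.5% of all genes, and the median was −0.49. Mme (neprilysin) had −1.38 with a count in 2 3xTg and 7 WT cells, but was higher in 3xTg between the first runs. Ide (insulin-degrading enzyme) had −0.59, with −1.28 and 0.35 in the runs, and Ece1 and Ece2 each had −0.38.

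Of 12 tau kinase genes, 11 passed the minimum, with 2 at least 1.5-fold higher and 2 at least 1.5-fold lower, neither share above the 21.5% and 25.5% of all genes, and a median of −0.11. Mark3, a microtubule affinity-regulating kinase, had 1.02 and Ttbk2, a tau tubulin kinase, 0.81, while their relatives Mark1 and Ttbk1 had −1.62 and −1.56. Each of these 4 kept its direction in both pairs of runs. Gsk3b and Cdk5, the best known tau kinases, had −0.11 and 0.07. Of 9 other genes of proteins that bind microtubules or tubulin, 4 had counts and none of them reached 1.5-fold over all cells. Their log2 ratios were 0.53 for Dcx, 0.35 for Stmn1, 0.24 for Stmn3 and 0.21 for Stmn2. Dcx had 1.01 and 1.08 in the pairs of runs, and Stmn1 0.089 and 0.63. Of 8 genes of apolipoprotein E receptors and lipid transfer, 2 were at least 1.5-fold higher (21.5% of all genes) and 1 at least 1.5-fold lower (25.5% of all genes), with a median of 0.20. Abca1, which loads lipid onto apolipoprotein E, had 1.70 with a count in 6 3xTg and 2 WT cells. Lrp1, a large endocytic receptor, had 0.90, with 2.00 and −0.19 in the runs. Lrp8, a receptor for apolipoprotein E and reelin, had −0.59, and Abcg1, a lipid exporter, −0.30.

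**Figure D5:**
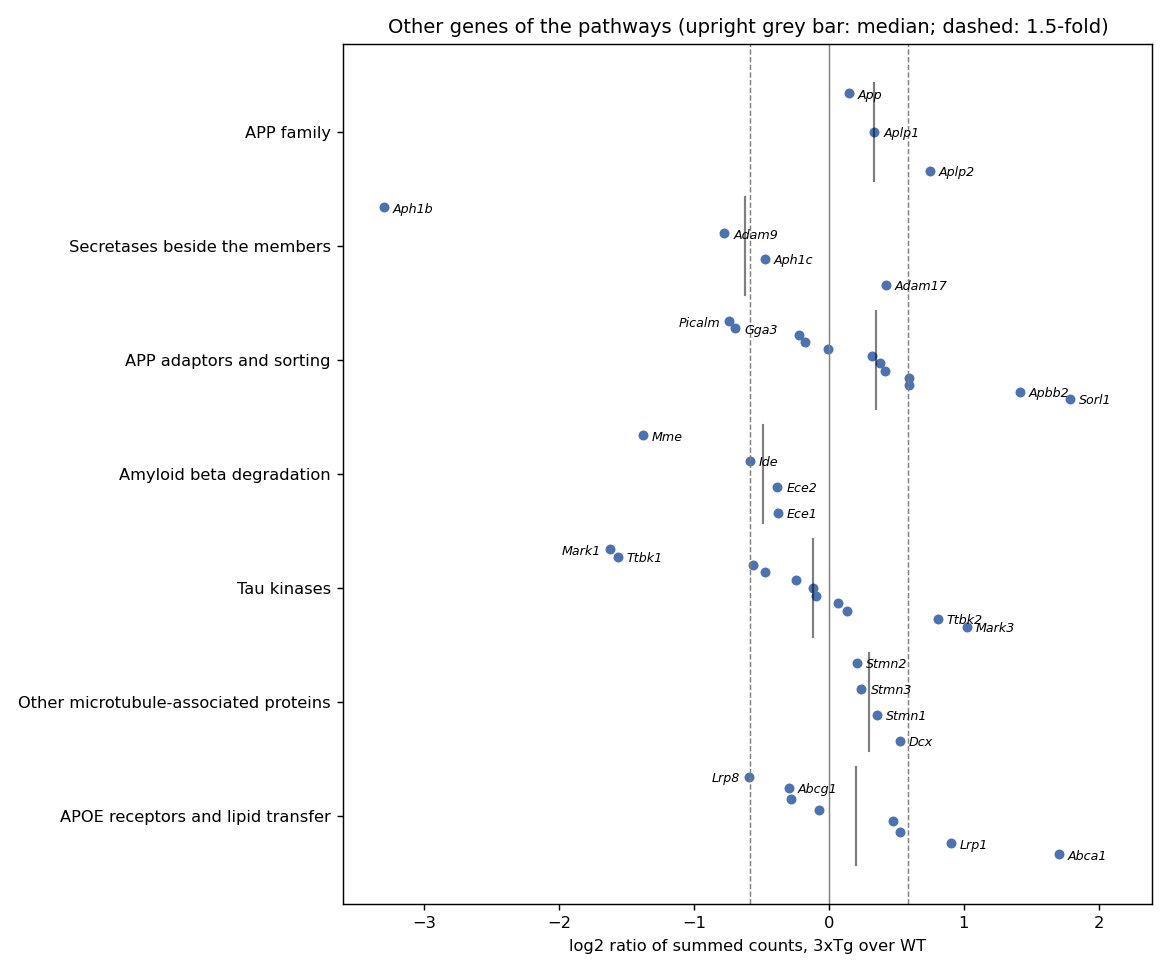
Log2 ratio of summed counts, 3xTg over WT, of the other genes of each pathway that had a mean of at least 1 count per cell, 1 point per gene, with the median of each list as an upright grey bar and 1.5-fold as dashed lines. Most points lie between the dashed lines, and Aph1b (−3.30) and Sorl1 (1.79) lie farthest out.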

How the data were processed

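Trimmed reads were aligned by the authors to mm10 RefSeq transcripts (Strand NGS 4.0, identity of at least 90%) and freed of duplicates. The authors deposited estimated counts per gene and log2 values, which they normalized with DESeq2. How multiply mapped reads were counted is not given in the sources used here. The deposited log2 values served as an alternative only. Counts were rounded for sums, TMM and thinning. Size factors were calculated as in DESeq2, over 787 genes. Genotype ratios are of summed counts as CPM, and a gene was called past 1.5-fold. Sums and ratios have exact Poisson and binomial intervals and shares exact Clopper-Pearson intervals, all at 95%. Amplified reads without molecular identifiers are not independent molecules, so these cover counting error only. Cells were not taken as replicates, since the labels name no mouse, and no test was made. Doublets were not called.

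The members and lists were chosen with earlier results of these data known. Named beside the 9 members were the 2 highest and 2 lowest genes of each pathway list (all genes of a list of 5 or fewer) and the 3 genes most like each widely counted member. Gsk3b, Cdk5 and the glial markers of WT 6 and WT 73 were named after their values were seen. A gene of the transgene loci and 1 further gene of the marker lists are not reported here. Older symbols were matched by gene ID in RefSeq. Splits by glial transcripts (at least 10 counts of a marker, or more than 10, with and without 3xTg 50) and by genes detected, and leaving out the 2 cells with the most Apoe, were added after seeing the data. The calculations were tested on simulated data. R 4.3.3 with edgeR 4.0.16 gave the TMM factors, and all else was run in Python 3.11.15 (scipy 1.17.1, numpy 2.4.6, matplotlib 3.10.9, pandas 2.3.3).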

Additional observations from a re-analysis of the deposited data

How the results depend on the processing

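The number of members at least 1.5-fold higher in 3xTg (1) was 2 with size-factor scaled sums, with TMM, without cells with Pvalb, Tmem119, P2ry12 or Aldh1l1, between the second runs and without the 2 cells with the most Apoe counts. It was 3 between the first runs, 5 with the mean of log2(normalized count + 1) or + 0.1 and with the authors' log2 values, and 0 without cells with glial transcripts (at least 10, or more than 10, counts of a marker) and in cells below the median of genes detected. The number at least 1.5-fold lower (1) was 2 without cells with those 4 markers, between the first runs, between the second runs, without cells with more than 10 counts of a glial marker and in cells at or above the median of genes detected, and 3 without cells with at least 10. Without 3xTg 50 as well, 4 (at least 10) and 3 (more than 10) members were lower, and 0 and 1 higher. The share of all genes past 1.5-fold was not calculated for the subsets by markers, genes detected or Apoe, nor for the scaled sums. Counts of members there cannot be set against a background. The median log2 ratio of the members (0.13) was 0.26 with TMM, 0.76 with the mean of log2(normalized count + 1), 0.90 with + 0.1, 0.46 with + 10, 0.77 with the authors' log2 values, −0.020 in thinned cells, 0.34 between the first runs, −0.036 and 0.019 without cells with at least 10 or more than 10 glial counts (−0.39 and −0.18 without 3xTg 50 as well), and −0.13 in cells below the median of genes detected. Without the cells with at least 10 or more than 10 glial counts, Apoe reversed, to 0.27 and 0.26, but was −1.07 and −0.65 without 3xTg 50 as well, and Ncstn fell to 0.078 and 0.077. Leaving out each cell in turn gave 1 to 2 members higher (2 in 27 of 68 cases), 1 to 2 lower and a median of 0.019 to 0.19. The lowest and highest log2 ratios of Ncstn were then 0.75 (without 3xTg 92) and 1.15 (without WT 94), and those of Apoe −2.01 (without 3xTg 50) and −1.21 (without WT 6). The background fell to 9.88% higher and 13% lower with the study's filter on expression and was 26.1% and 30.1% with no filter. Only 3 members (App, Mapt and Psenen) passed the study's filter, and none of them was past 1.5-fold over all cells by summed counts. Ncstn and Apoe did not pass it, so their calls do not belong beside that background. On these log scales 37.8%, 49.7% and 37.5% of all genes (+ 1, + 0.1 and the authors' values) were higher by as much, and the median gene differed by 0.34, 0.58 and 0.34, and by 0.13 with + 10. The causes were not tested. No paired analysis was possible because the genotypes share no label numbers. Depth limits the members that were at 0 in some cells, since a cell without a count does not show that the gene was silent there.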
